A study of Mus musculus with 8 samples.

Results

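The genes described here are 10 members of the insulin-like growth factor (IGF) axis and of growth hormone signalling, measured in mouse liver: the hormone gene Igf1, the binding protein genes Igfbp1, Igfbp2, Igfbp3, Igfbp4 and Igfals, the growth hormone receptor gene Ghr, the transcription factor gene Stat5b, and the feedback inhibitor genes Socs2 and Cish. They were taken by symbol from the array's annotation, which gave 11 probe sets for them, and the brightest probe set stood for each gene, so that 10 of the 19938 genes measured are described. The livers came from 8 adult male mice, of which 4 were wild type and served as controls, and 4 carried a Rictor allele flanked by loxP sites together with albumin-Cre. All 8 mice went without food for 16 h and then ate freely for 3 h before the liver was taken. The Rictor protein is needed for mTOR complex 2 (mTORC2), a kinase complex that acts on Akt in insulin signalling. The single comparison, livers labelled as Rictor knockout against controls, asks how transcripts of the refed liver depend on mTORC2 in hepatocytes. Albumin-Cre acts in hepatocytes, and the other cells of the liver keep Rictor. The labels do not say whether the controls carried floxed alleles or Cre.

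Pituitary growth hormone binds its receptor on hepatocytes, and the kinase JAK2 then activates STAT5, which switches on Igf1, Igfals and the inhibitors Socs2 and Cish. Most circulating IGF-1 comes from the liver and travels with a binding protein, in the adult mainly in a ternary complex of IGF-1, IGFBP-3 and the acid-labile subunit encoded by Igfals. Igfbp1 is set acutely by nutrition: FoxO1 drives it in the fasted liver, and insulin, acting through Akt, shuts it off after a meal.

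The promoters of 3 of these genes contain short elements known from insulin and STAT5 regulation, and they are shown as background to the values that follow. RefSeq promoter windows (GRCm38.p6, 250 bases before to 50 after an annotated start) were at hand for 9 of the 10 genes, all but Socs2, 14 windows in all. The 250 bases before the Igfbp1 start (chr11:7197537-7197786, plus strand) are printed with 2 elements of an insulin response sequence in capitals, CAAAACA and the reverse complement of CAAAATA.
Igfbp1: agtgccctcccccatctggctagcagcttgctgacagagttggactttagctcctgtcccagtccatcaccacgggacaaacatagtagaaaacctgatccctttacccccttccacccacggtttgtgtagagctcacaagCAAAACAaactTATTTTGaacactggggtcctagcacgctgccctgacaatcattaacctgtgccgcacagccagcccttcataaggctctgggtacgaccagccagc
The first element began at position -108 and the other at position -97 relative to the start. Searched on both strands, CAAAACA was present in 6.28% and CAAAATA in 4.36% of the 32851 windows of this length, and both together in 0.472%. Among the members' windows only that of Igfbp1 held either. The letters TTCNNNGAA, to which STAT5 can bind, were searched in the same way and were present in 8.3% of all windows. They occurred in the windows of Cish, where 2 of them lay side by side at the start, and of Igfals, with 1 in each of 2 of its 3 windows. The sites are in capitals in stretches of 30 bases, on the plus strand of chr9:107296654-107296683 for Cish and of chr17:24877598-24877627 and chr17:24878163-24878192 for Igfals.
Cish: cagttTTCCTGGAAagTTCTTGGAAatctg
Igfals, upstream window: gatctataatTTCTCAGAAaagaggctgag
Igfals, middle window: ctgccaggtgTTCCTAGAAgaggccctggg
A window with 2 or more such sites made up 0.457% of all windows. The FoxO core GTAAACA, also searched, was present in 3.65% of all windows and in 1 member window, the middle one of Igfals. These matches describe letters and do not show that a factor bound there.

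Expression is given as log2 RMA values, 1 array per mouse. A difference is the mean of the 4 knockout-labelled arrays minus that of the 4 controls. For Rictor the controls gave 9.40 ± 0.19 (SD, n = 4), and the arrays labelled as knockout gave 9.45 ± 0.22 (SD, n = 4), so its probe set did not separate the labels. Which exons it covers was not examined, and the groups are named by their labels throughout. The arrays numbered 1 stood apart. Knockout-labelled array 1 had a lower mean correlation with the rest of its labelled group (0.988) than with the controls (0.991), and control 1 correlated alike with both (0.991 and 0.991). Whether the labels of these 2 arrays were exchanged cannot be told from the values, and every difference over all 8 arrays takes the labels as given. Results that rest on these arrays are given with and without them, and leaving out both was a choice made after seeing the data. Without both, Rictor differed by 0.17, toward higher values on the knockout-labelled arrays (limma adjusted p = 0.510). Labels do not say whether the mice were litter mates or were handled together. The p-values take these 8 livers as independent, which could not be checked. Markers of hepatocytes were bright on every array, with a mean over 7 genes from 13.57 to 13.63. The mean over 7 liver endothelial markers ranged from 10.20 to 10.54 in controls and from 10.26 to 10.58 in the knockout-labelled group, over 7 stellate cell markers from 9.12 to 9.48 and from 9.20 to 9.34, and over 6 Kupffer cell markers from 8.93 to 9.63 and from 8.998 to 10.13. The mean over 4 cholangiocyte markers differed by -0.19, from 7.46 to 7.90 against 7.36 to 7.82, and that over 4 lymphocyte markers by -0.19, from 6.23 to 6.71 against 6.17 to 6.46, with overlap in both. The cholangiocyte mean joins unlike members. Epcam differed by -0.46 and passed with array weights (limma adjusted p = 0.0362), where 3.55% of all genes passed. It also passed once knockout-labelled array 1 was dropped (limma adjusted p = 0.00545), where 4.4% of all genes passed. That array read 7.03 in Epcam, against at most 6.31 in the rest of its group. It also had the lowest array weight, 0.47, so these passes are not separate from each other. Sox9 differed by -0.44, but Krt7 by 0.11 and Krt19 by 0.02. All 4 lymphocyte markers had a lower mean, and Cd79a differed most, by -0.37 (limma adjusted p = 0.334). The part of these cells in the members' values was not tested. The 2 pancreatic markers measured lay from 6.74 to 6.96 in controls and from 6.81 to 6.93 in the other group. In whole liver, fewer cells of a type and less RNA per cell cannot be told apart.

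Across the 10 genes the binding protein transcripts Igfbp1 and Igfbp2 had the largest differences, both toward higher values on the knockout-labelled arrays, while the transcripts of the circulating complex and of the growth hormone receptor had small negative differences. After Benjamini-Hochberg correction over all probe sets none of the 10 passed (limma adjusted p from 0.268 to 0.902), where 0 of 19938 genes, 0%, passed. At an unadjusted limma p under 0.05, 2 members stood, Igfbp1 and Igfbp2, against 10.5% of all genes. The groups overlapped in all 10 members, whereas they did not overlap in 4.42% of all genes. The median difference was 0.07 over the members and -0.02 over all genes. The plot of values by array shows each gene with the arrays numbered.

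**Figure D1:**
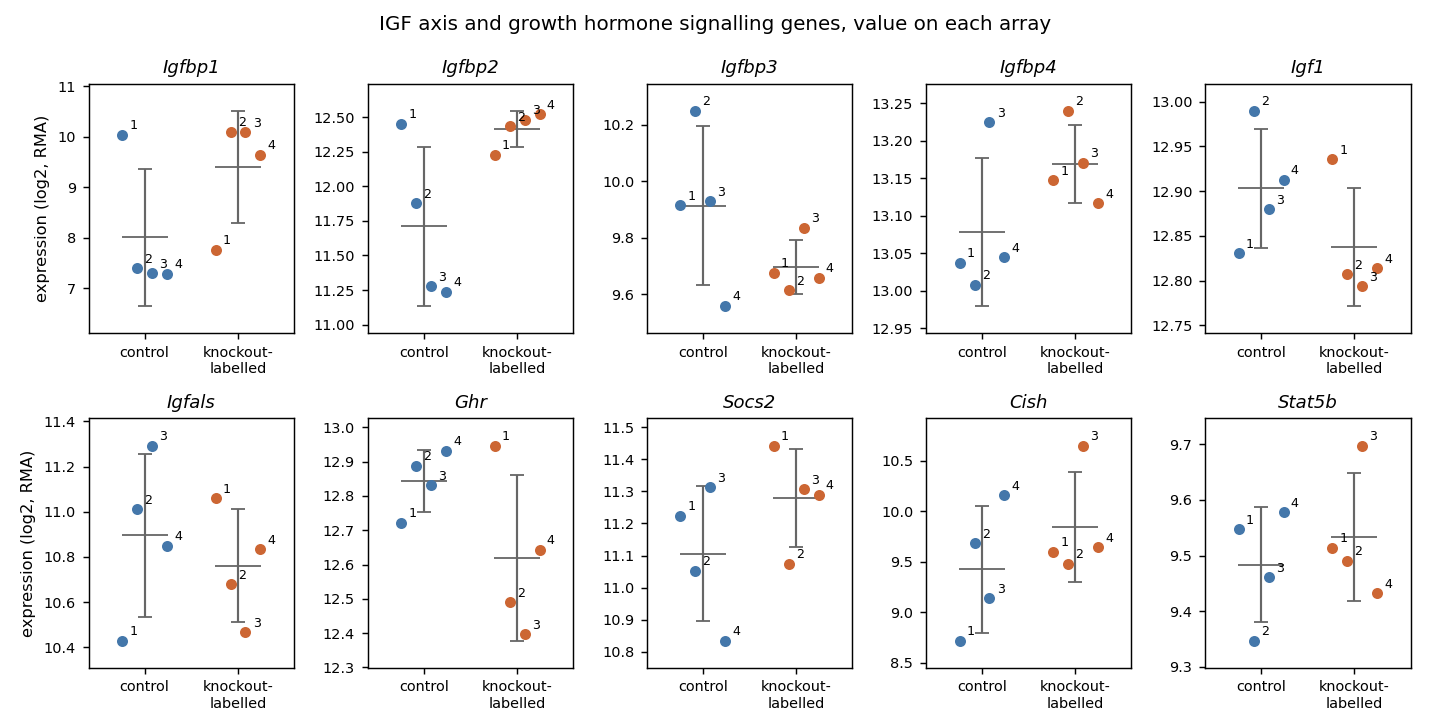
RMA expression (log2) of the 10 genes on each array, with control arrays in blue, knockout-labelled arrays in orange and the replicate number beside each point; horizontal bars are group means and vertical bars 1 SD (n = 4). Each panel has its own axis. Igfbp1 is near 10 on control 1 and on knockout-labelled arrays 2 to 4, and from 7.29 to 7.76 on the other 4 arrays.

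Igfbp1, the insulin-repressed binding protein, had the widest span of any member. The control arrays read 10.04, 7.40, 7.30 and 7.29 and the knockout-labelled arrays 7.76, 10.10, 10.10 and 9.65, in the order of their numbers. Control 1 was as high as the high knockout-labelled arrays, and knockout-labelled array 1 lay near the low controls, so the groups overlapped. The difference was 1.39 (SE 0.61), or 2.63-fold with a 95% interval from 1.04-fold to 6.61-fold (limma adjusted p = 0.436, exact two-sided permutation p = 0.114). With 4 arrays against 4 the smallest p that test can give is 0.0286. The difference was 2.07 when control 1 was left out and 1.94 when knockout-labelled array 1 was (limma adjusted p = 0.0593 and 0.0633). Without both it was 2.62 (limma adjusted p = 1.85e-07), with controls 2 to 4 at 7.33 ± 0.06 (SD, n = 3) and knockout-labelled arrays 2 to 4 at 9.95 ± 0.26 (SD, n = 3). Since both arrays lie toward the other group in this gene, that last p is not a test.

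Igfbp2, which encodes the second nutrition-dependent binding protein made by hepatocytes, had the smallest p of the 10. Controls read 12.45, 11.88, 11.28 and 11.24, and the knockout-labelled arrays 12.23, 12.43, 12.48 and 12.52. All 4 knockout-labelled arrays were above controls 2 to 4, and control 1 lay among them. The controls were more spread (SD 0.57, n = 4) than the arrays labelled as knockout (SD 0.13, n = 4). The difference was 0.70 (SE 0.21), or 1.63-fold with a 95% interval from 1.18-fold to 2.25-fold (limma adjusted p = 0.268, exact permutation p = 0.0857). Without control 1 it was 0.95 and passed (limma adjusted p = 0.0308), where 0.296% of all genes passed and 0.231% passed as higher. Knockout-labelled array 1 was the lowest of its group in both Igfbp1 and Igfbp2. It was with the low controls for Igfbp1 but nearer to its own group for Igfbp2. Without both arrays numbered 1 the difference of Igfbp2 was 1.01 (limma adjusted p = 0.000844), where 7.47% of all genes passed. Over the 17 alternatives, which include leaving out both, the adjusted p of Igfbp2 ranged from 0.000844 to 0.638. Apart from that choice, made after seeing the data, its lowest value was 0.0308, without control 1. Since control 1 lies among the knockout-labelled arrays in this gene, the p-values without it are no separate test.

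Igfbp3 and Igfals encode the proteins that hold IGF-1 in the ternary complex, and both had lower means on the knockout-labelled arrays. In rodent liver Igfbp3 is expressed mainly by cells other than hepatocytes. Its values were 9.91, 10.25, 9.93 and 9.56 in controls and 9.68, 9.61, 9.83 and 9.66 in the knockout-labelled group. All 4 of the latter lay below the control mean, but control 4 was the lowest of all 8. The difference was -0.22 (SE 0.13; limma adjusted p = 0.583, exact permutation p = 0.257). It ranged from -0.33 without control 4 to -0.11 without control 2, so single controls decided its size. The endothelial and Kupffer marker means given above overlapped between the groups, and their part in the Igfbp3 values was not tested.

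Igfals read 10.43, 11.01, 11.29 and 10.85 in controls and 11.06, 10.68, 10.47 and 10.83 on the knockout-labelled arrays. Control 1 was the lowest array of all and knockout-labelled array 1 the second highest, the reverse of their places for Igfbp1. The difference was -0.14 (SE 0.17) over all 8 arrays (limma adjusted p = 0.827, exact permutation p = 0.629), -0.29 with control 1 left out, -0.24 with knockout-labelled array 1 left out and -0.39 with both left out (limma adjusted p = 0.0764 in the last). Without control 3 it was -0.0033, so the direction was hardly held.

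Igfbp4, a binding protein that restrains IGF action in tissues, varied little. Controls ranged from 13.01 to 13.23 and knockout-labelled arrays from 13.12 to 13.24, and control 3 was the 1 control that lay among the latter. The difference was 0.09 (SE 0.07; limma adjusted p = 0.675), with a 95% interval from 0.96-fold to 1.18-fold. It was 0.14 without control 3.

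Igf1, the hormone itself, had the narrowest range of the members. The controls read 12.83, 12.99, 12.88 and 12.91 and the knockout-labelled arrays 12.94, 12.81, 12.79 and 12.81. Knockout-labelled arrays 2 to 4 were the 3 lowest of the 8, followed by control 1. The difference was -0.07 (SE 0.07; limma adjusted p = 0.778, exact permutation p = 0.229), and its 95% interval ran from 0.87-fold to 1.05-fold. Without both arrays numbered 1 the difference was -0.12 (limma adjusted p = 0.316). Single arrays moved it from -0.10 without knockout-labelled array 1 to -0.04 without control 2.

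Ghr encodes the receptor through which growth hormone reaches the hepatocyte. Controls read 12.72, 12.89, 12.83 and 12.93, and the knockout-labelled arrays 12.95, 12.49, 12.40 and 12.64. Knockout-labelled arrays 2 to 4 were below every control, and knockout-labelled array 1 was the highest of all 8. The difference was -0.22 (SE 0.11; limma adjusted p = 0.475, exact permutation p = 0.171). Without knockout-labelled array 1 the difference was -0.33 and passed (limma adjusted p = 0.0346), where 4.4% of all genes passed and 3.3% passed as lower. Without both arrays numbered 1 it was -0.37 (limma adjusted p = 0.00931), and with array weights estimated by limma -0.29 (limma adjusted p = 0.0790). The adjusted p over the 17 alternatives, which include leaving out both, ranged from 0.00931 to 0.833. Apart from that choice, made after seeing the data, its lowest value was 0.0346, without knockout-labelled array 1. Since that array lies toward the controls in this gene, the p-values without it are no separate test. The difference was smallest, at -0.15, without knockout-labelled array 3.

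**Figure D2:**
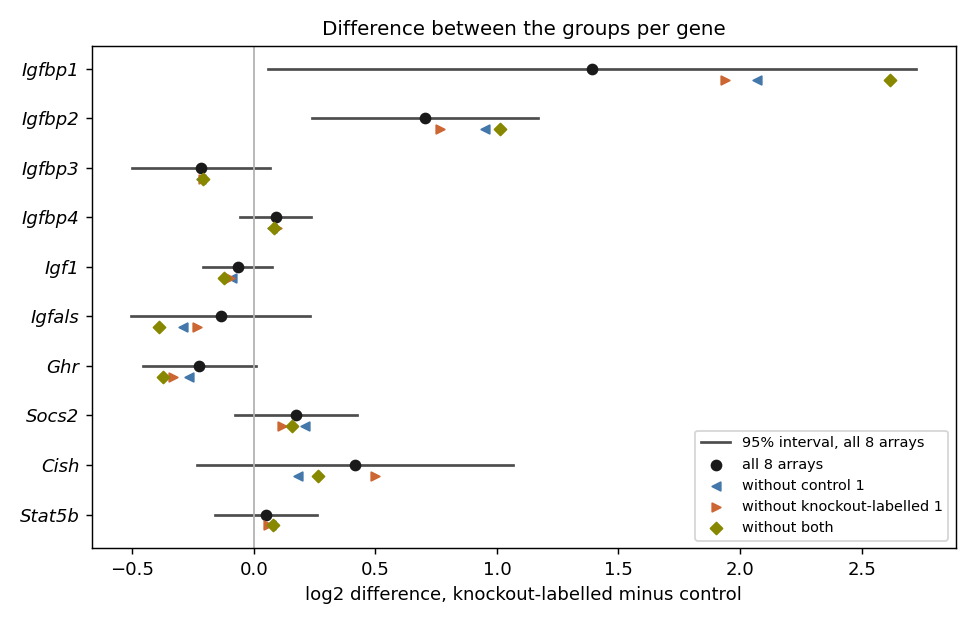
Log2 difference between knockout-labelled and control arrays for each gene, with black points and lines for the estimate and its 95% interval over all 8 arrays (limma) and coloured marks for the estimates with control 1, knockout-labelled array 1 or both left out. For Igfbp1, Igfbp2, Igf1, Igfals, Ghr and Stat5b the mark without both arrays lies farther from 0 than the estimate from all 8 arrays.

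Downstream of the receptor, Stat5b, the main STAT5 gene of liver, differed by 0.05 (SE 0.10; limma adjusted p = 0.902), with controls from 9.35 to 9.58 and knockout-labelled arrays from 9.43 to 9.70. Its direction turned to -0.0045 without knockout-labelled array 3. Stat5a, its close paralog, differed by -0.08 (SE 0.09; limma adjusted p = 0.820). Signal shared between these similar transcripts was not examined.

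Socs2, the STAT5-induced inhibitor that limits growth hormone signalling, read 11.22, 11.05, 11.31 and 10.84 in controls and 11.44, 11.07, 11.31 and 11.29 in the knockout-labelled group. The groups overlapped, with control 4 the lowest and knockout-labelled array 1 the highest. The difference was 0.17 (SE 0.12; limma adjusted p = 0.631), and the second, dimmer probe set of the gene gave 0.18 (SE 0.10; limma adjusted p = 0.558). It came to 0.08 with control 4 left out and to 0.24 with knockout-labelled array 2 left out.

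Cish, the fast-responding STAT5 target whose promoter carries the paired sites shown above, varied more within groups than between them. Controls read 8.72, 9.68, 9.14 and 10.16 and the knockout-labelled arrays 9.60, 9.48, 10.65 and 9.65. The lowest array was control 1 and the highest knockout-labelled array 3, 3.81-fold apart. The difference was 0.42 (SE 0.30; limma adjusted p = 0.657, exact permutation p = 0.4), and it came to 0.15 without knockout-labelled array 3, to 0.18 with control 1 left out, and to 0.66 with control 4 left out. Socs2 and Cish, both STAT5 targets, had no correlation past the threshold over the 8 arrays (Pearson r = -0.197, exact permutation p = 0.639; Spearman rho = -0.262, exact permutation p = 0.536; adjusted p = 0.896 and 0.999 over the 45 pairs of members). Without the 2 arrays farthest from the Socs2 median r was 0.219, and without the 2 farthest from the Cish median it was -0.674. Within the controls r was -0.896 and within the knockout-labelled group 0.221, each over 4 arrays, so the relation depended on the arrays used.

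Growth hormone reaches the male mouse liver in pulses, and Bcl6, a repressor gene that STAT5 turns down, is another readout of that signal. Bcl6 spanned more than Cish. It read 10.09, 7.91, 9.40 and 7.62 in controls and 9.90, 9.12, 7.44 and 8.19 on the knockout-labelled arrays. The groups differed by -0.09 (SE 0.56; limma adjusted p = 0.971). The array lowest in Cish, control 1, was the highest in Bcl6, and knockout-labelled array 3, the highest in Cish, was the lowest in Bcl6. Over the 8 arrays Pearson r was -0.840 (exact permutation p = 0.00384, adjusted p = 0.0308) and Spearman rho -0.929 (exact permutation p = 0.00223, adjusted p = 0.0179), with adjustment over the 8 growth hormone and STAT5 responsive genes set against Cish. Without those 2 arrays, which lie farthest from the Cish median, r was -0.708. Within the controls r was -0.976 and within the knockout-labelled group -0.781, each over 4 arrays. The pair was picked out after its values were seen, so these p-values describe it and are no separate test. The other 7 genes of that list gave r from -0.405 to 0.252, with an adjusted permutation p of 0.910 for each. Neither growth hormone nor STAT5 activity was measured in these mice, and the cause of the relation between Cish and Bcl6 was not tested.

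**Figure D3:**
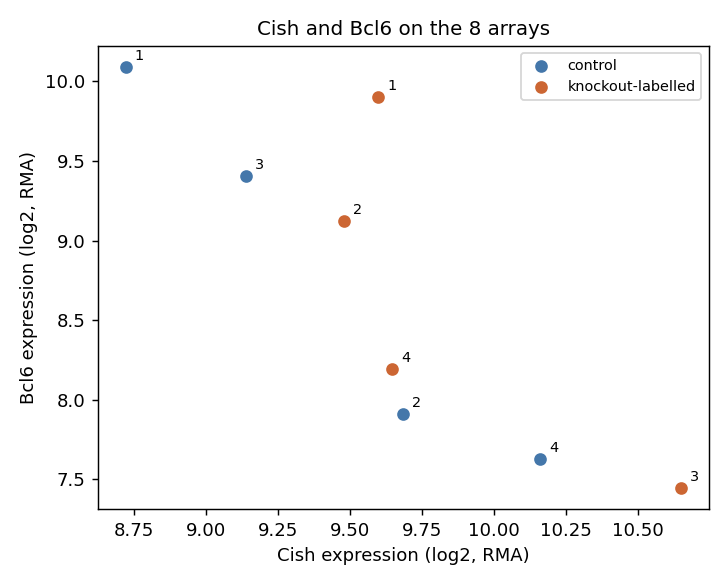
Cish against Bcl6 expression (RMA, log2) on the 8 arrays, with control arrays in blue, knockout-labelled arrays in orange and the replicate number beside each point. Arrays high in Cish are low in Bcl6 in both groups, from control 1 (8.72 and 10.09) to knockout-labelled array 3 (10.65 and 7.44).

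Members differed in whether their variation lay along the pattern of Igfbp1. When only arrays 2 to 4 of each group were set against each other, the groups did not overlap in 5 of the 10 members, Igfbp1, Igfbp2, Igf1, Igfals and Ghr, against 24.8% of all genes. In these 5 genes control 1 lay on the side of knockout-labelled arrays 2 to 4 relative to the control mean, and in all but Igfbp2 knockout-labelled array 1 lay closer to the mean of controls 2 to 4 than to that of the rest of its own group. Igfbp3, Igfbp4, Socs2, Cish and Stat5b had overlapping groups in that setting too. Igfbp1 values formed 2 sets of 4 arrays with nothing between 7.76 and 9.65, so no r is given for its pairs, although they were among the 45 pairs of members computed. Igf1 and Ghr had Pearson r = 0.863 (exact permutation p = 0.00655) and Spearman rho = 0.929 (exact permutation p = 0.00223) over the 8 arrays, with adjusted p = 0.131 and 0.1004 over the 45 pairs, and r = 0.937 without the 2 arrays farthest from the Igf1 median. Of the 45 pairs 0 had an adjusted permutation p under 0.05, and 5 had an unadjusted one. Of those 5, Igf1 with Ghr was the 1 pair without Igfbp1, and the other 4 set Igfbp1, with its separate sets of arrays, against Igfbp2, Igf1, Igfals and Ghr. In both Igf1 and Ghr, control 1 and knockout-labelled arrays 2 to 4 were the 4 lowest arrays, the same ones that were high in Igfbp1. The r of Igf1 with Ghr is therefore not separate from the Igfbp1 pattern.

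The genes most like Igfbp1 were named by Pearson r over the 8 arrays among 10841 other genes brighter than the median probe set. They were the leptin receptor gene Lepr (r = 0.996), Nipal1 (0.984), Rgs16 (0.978), Irs2 (0.974) and Elovl2 (0.973). Lepr read 10.66, 6.77, 6.43 and 6.51 in controls and 6.87, 10.53, 10.9995 and 10.06 on the knockout-labelled arrays, a wider gap than that of Igfbp1. Irs2 encodes the insulin receptor substrate that fasting raises, Rgs16 a regulator of G protein signalling and Elovl2 a fatty acid elongase. Their group differences ranged from 0.19 (Elovl2) to 2.02 (Lepr), and none passed (limma adjusted p from 0.451 to 0.529). Least like it were Ddx19b (-0.985), Atp8b1 (-0.984) and Ahcyl2 (-0.980). These coefficients describe 2 sets of 4 arrays each, were chosen as the extremes of the ranking, and carry no test.

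**Figure D4:**
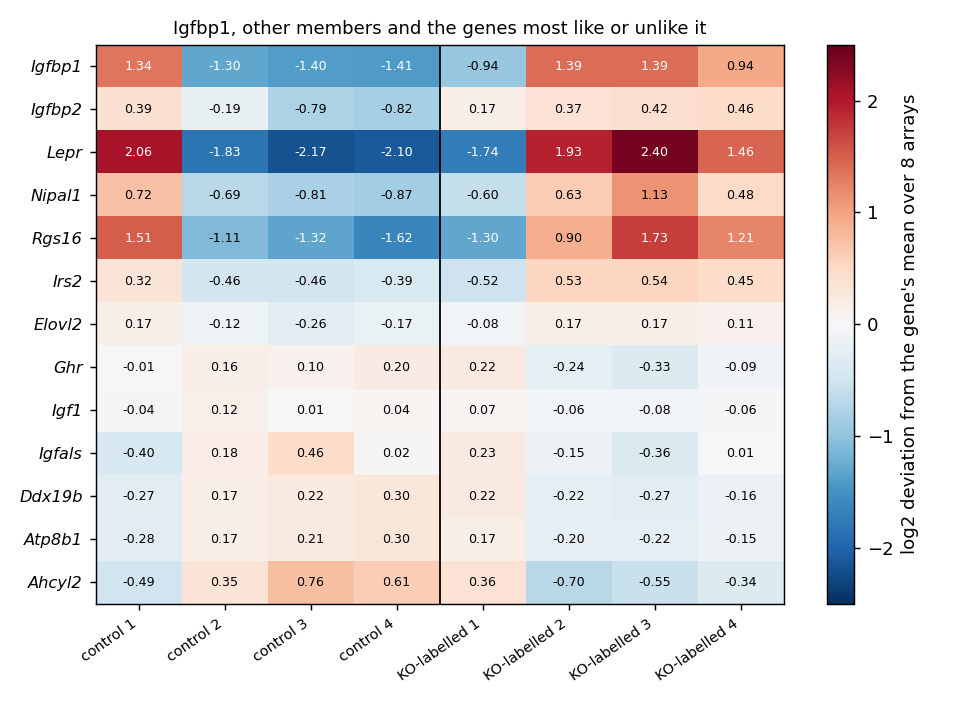
Log2 deviation of each gene from its own mean over the 8 arrays, for Igfbp1 and Igfbp2, the 5 genes most like Igfbp1, the members Ghr, Igf1 and Igfals, and the 3 genes least like Igfbp1; columns are arrays, with controls left of the line. Control 1 has the colours of knockout-labelled arrays 2 to 4 in Igfbp1 and Lepr, and knockout-labelled array 1 those of controls 2 to 4.

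For Igf1 the most similar genes by the same measure were Nat8f2 (r = 0.974), Afm (0.955), Cyp2c29 (0.948), Cyp2r1 (0.945) and Tsc22d1 (0.945), and the least similar Bcar1 (-0.979), Ctdsp2 (-0.978) and Sun2 (-0.976). Afm encodes the plasma protein afamin and Cyp2r1 a vitamin D 25-hydroxylase. The differences of the 5 similar genes ran from -0.38 (Tsc22d1) to -0.06 (Nat8f2), and those of the 3 dissimilar ones from 0.11 (Bcar1) to 0.31 (Sun2). For Socs2 the most similar were Pisd (0.970), G3bp1 (0.968), Atoh8 (0.941), Stip1 (0.935) and Eif2b5 (0.931), and the least similar Pyy (-0.920), Zar1 (-0.905) and Csnk1g1 (-0.903). All 16 genes had adjusted limma p-values above 0.39 in the comparison of the groups. Their coefficients, too, were chosen as the extremes of a ranking and carry no test. Tsc22d1 was low, and Ctdsp2 and Sun2 were high, on control 1 and knockout-labelled arrays 2 to 4, the arrays high in Igfbp1. Tsc22d1, Ctdsp2 and Sun2 are thus not particular to Igf1. Cyp2c29 did not split in this way, with control 3 (13.25) below control 1 (13.27).

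The wider pathway was described with a list of 91 genes, of which 82 were measured and the other 9 were not analysed here. Over all probe sets 0 of the 82 passed, and 11, or 13.4%, had an unadjusted limma p under 0.05, 3 of them higher and 8 lower, beside 10.5% of all genes, 3.84% higher and 6.61% lower. The list's median difference was -0.07. Among the ligands, the 4 genes gave differences from -0.15 (Igf2) to 0.02 (Ins2). Gh and Ins2 are made in the pituitary and the pancreas, and their probe sets lay below the median of all probe sets.

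Of the 8 binding protein genes, 3 had a higher and 5 a lower mean. Igfbp5 stood opposite to Igfbp1 and Igfbp2. It read 7.90, 8.20, 8.46 and 8.46 in controls and 8.04, 7.66, 7.78 and 7.69 on the knockout-labelled arrays. The groups differed by -0.46 (SE 0.13; limma adjusted p = 0.237). Control 1 was its lowest control and knockout-labelled array 1 the highest of its group. It passed under array weights (-0.48, limma adjusted p = 0.0365), where 3.55% of all genes and 3 of the 82 passed. It also passed without knockout-labelled array 1 (-0.54, limma adjusted p = 0.0375), where 4.4% of all genes passed. Without control 1 it did not pass (-0.58, limma adjusted p = 0.0533). The 6 genes of binding protein proteases and their inhibitors gave differences between -0.20 (Pappa2) and 0.20 (Adamts1), and 0 of them had an unadjusted limma p under 0.05. The Pappa2 probe set used was dim, at most 6.07 on any array, and the gene's other probe sets gave -0.07 and -0.04.

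Of the 4 receptor genes measured, Insr had a higher mean (0.08, SE 0.11), and Igf1r and Igf2r lower ones (-0.05 and -0.08), beside Ghr. Jak2, the kinase bound to the growth hormone receptor, differed by -0.21 (SE 0.11; limma adjusted p = 0.525), and Jak1 by 0.17 (SE 0.10; limma adjusted p = 0.577). The median over the 8 transducers measured was -0.00048.

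The 14 feedback inhibitors had a median of 0.07, with 9 higher and 5 lower. Ptpn1, which encodes the phosphatase PTP1B that acts on JAK2 and the insulin receptor, was the 1 gene of the 82 whose groups did not overlap, a smaller share than the 4.42% of all genes. Controls read 9.13, 9.05, 9.14 and 9.11 and the knockout-labelled arrays 9.49, 9.23, 9.32 and 9.30. The difference was 0.23 (SE 0.09; limma adjusted p = 0.383, and from 0.123 to 0.738 over its alternatives). Unlike Igfbp1 and Ghr, it was not larger without knockout-labelled array 1 (0.18). Socs3 differed by 0.34 (SE 0.16; limma adjusted p = 0.475) by its brighter probe set and by 0.05 by its other one, so its value is not settled.

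Among the growth hormone and STAT5 responsive genes, 6 of 8 had a lower mean and 0 an unadjusted limma p under 0.05. Hnf4a, a master regulator of hepatocyte genes, differed by -0.13 (SE 0.06), Egfr by 0.19 (SE 0.09) and Pik3r1, the regulatory subunit of PI 3-kinase, by -0.23 (SE 0.19). Pik3r1 was another gene in which control 1 (10.54) was the lowest array, against 11.20 to 11.53 in the other controls.

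Growth hormone pulses also set the sex difference of liver transcripts, so genes known as male-biased or female-biased were listed. Of 14 measured male-biased genes 11 had a lower mean, with a median of -0.22, and 4 had an unadjusted limma p under 0.05, all of them lower, where 56.9% of all genes had a lower mean and 6.61% were lower at that p: Cyp4a12a (-0.27, SE 0.10), Cyp4a12b (-0.20, SE 0.09), Cyp2u1 (-0.30, SE 0.13) and Ces2e (-0.55, SE 0.24). None passed (limma adjusted p from 0.382 to 0.446). In all 4, control 1 was the lowest control and knockout-labelled array 1 the highest of its group. These genes are thus not separate from the pattern of the arrays numbered 1. Cyp4a12a and Cyp4a12b are near-identical fatty acid hydroxylase genes, so their probe sets may share signal and do not count as separate observations. Ces2e, a carboxylesterase, read 11.48 on knockout-labelled array 1 and 10.21, 10.37 and 10.19 on the others of that group, and it passed once that array was left out (-0.85; limma adjusted p = 0.00487) and under array weights (-0.71; limma adjusted p = 0.0449). Of 16 measured female-biased genes 11 also had a lower mean, with a median of -0.07, and 3 had an unadjusted limma p under 0.05, all of them lower: Cyp2b10, Atp6v0d2 and Cyp2b13. Cyp2b10 differed by -0.67 (SE 0.27), Atp6v0d2 by -0.58 (SE 0.17), Cyp2b13 by -0.17 (SE 0.07) and Prom1, next by p, by -0.26 (SE 0.13), with limma adjusted p from 0.249 to 0.504. Atp6v0d2 passed under array weights (limma adjusted p = 0.0208) and with knockout-labelled array 1 left out (limma adjusted p = 0.00567). In these settings 3.55% and 4.4% of all genes passed. Knockout-labelled array 1 lay toward the controls in both Ces2e and Atp6v0d2. Cyp2b13 read at most 4.89 on any array, a dim probe set.

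**Figure D5:**
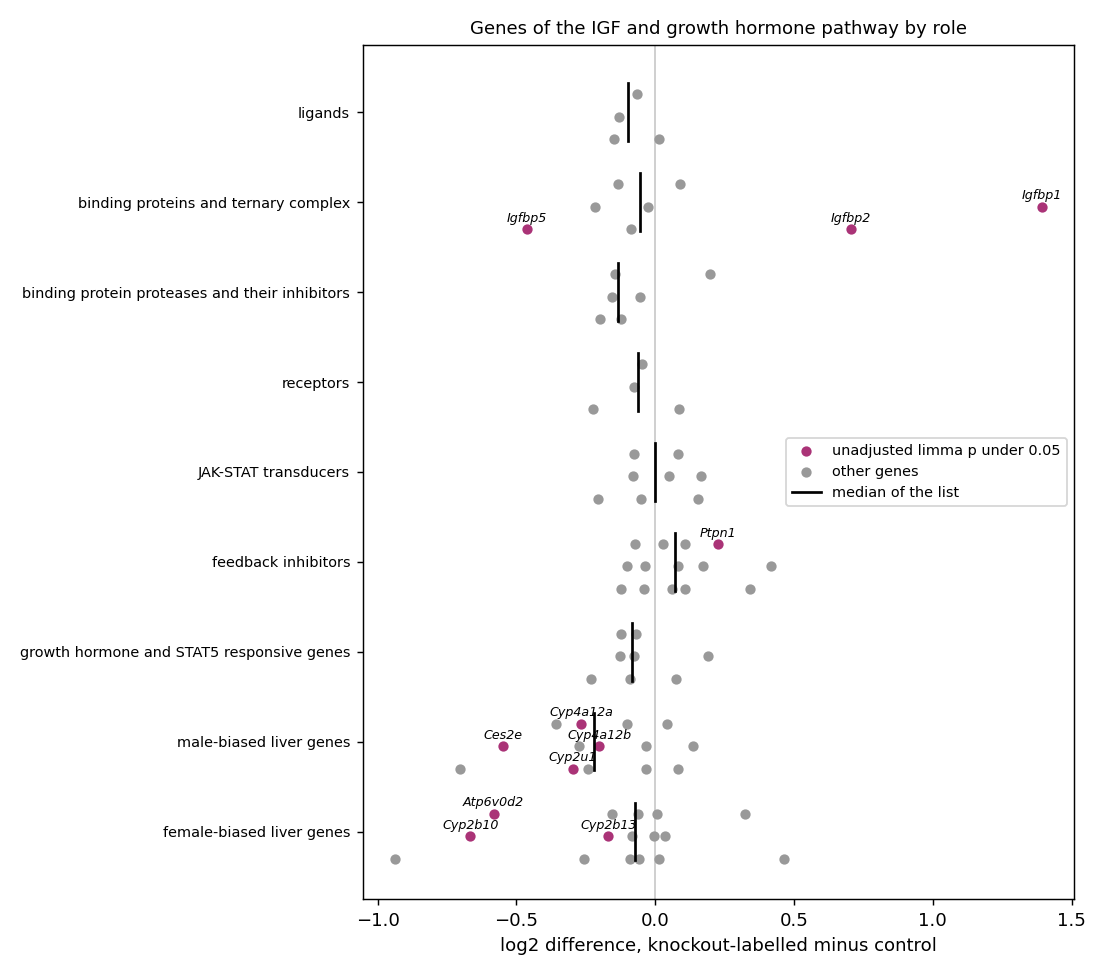
Log2 difference, knockout-labelled minus control, of the 82 measured genes of the wider IGF and growth hormone list (Igf1 and the other members included), grouped by role; purple points have an unadjusted limma p under 0.05, grey points do not, vertical position within a row has no meaning, and black lines are medians. Igfbp1 (1.39) and Igfbp2 (0.70) lie farthest to the right, and the 4 purple male-biased genes lie between -0.55 and -0.20.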

How the data were processed

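Liver RNA of 8 mice was measured on Affymetrix Mouse Gene 1.0 ST arrays, 1 per mouse. The authors' deposited values are log2 expression values per probe set; RMA, Partek and Affymetrix Expression Console are listed in the submitters' processing notes, with no version or order, and base 2 was read from the range of the values. RMA equalises arrays, so a shift common to most genes would be lost. Array medians lay between 6.90 and 7.03, and precision is limited by the array number. Of 35556 probe sets, the 21789 with exactly 1 gene symbol (updated by Entrez identifier against RefSeq's GRCm38.p6 table, 21698 matched) were fitted with limma 3.58.1 in R 4.3.3 (eBayes with trend, equal weights, two-sided), with Benjamini-Hochberg adjustment over all of them and a threshold of 0.05. The procedure was tested on simulated data.

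Alternatives were array weights, no trend, dim probe sets left out, quantile normalization, median centring, all probe sets, the mean of a gene's probe sets, the replicate number as a block, and each array left out. Leaving out both arrays numbered 1 was added after seeing the data and is counted among the 17 alternatives. Named genes were the 10 members, Rictor, genes among the 4 smallest p of each role list, and those most and least like Igfbp1, Igf1 and Socs2; Bcl6 was added after its values were seen. Members and lists were chosen with earlier results of these data known. Deviations of same-numbered arrays from their group means correlated at 0.00356, -0.0948, -0.0625 and 0.211, so numbers were not taken as pairs. Pairs of arrays correlated at 0.987 to 0.994, and every array counted as 1 sample.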

Additional observations from a re-analysis of the deposited data

Results flagged for a closer look

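In 4 of the 20 sets of 4 values (10 genes, 2 groups) 1 array stood far from the other 3 of its group, by Dixon's criterion, which chance meets in about 1 set in 20. The Igfbp1 value of control 1 was 10.04 against at most 7.40 in the other controls. The Igf1 value of knockout-labelled array 1 was 12.94 against at most 12.81 in its group. The Cish value of knockout-labelled array 3 was 10.65 against at most 9.65, and the same array was lowest in Bcl6. The Igfbp4 value of control 3 was 13.23 against at most 13.04. Of these, the first 2 fall on the arrays numbered 1, which also stood apart in their correlation with other arrays.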

How the results depend on the processing

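Over all genes 0 passed at equal weights (2084 at an unadjusted limma p under 0.05), 707 with array weights, from 0 to 877 with single arrays left out (59 if control 1 and 877 if knockout-labelled array 1 was dropped), and 1489 with neither array numbered 1. In the wider list 3 passed with array weights, or 3.66%, beside 3.55% of all genes. Single arrays left out gave from 0 to 4. These were 1 without control 1 (1.22%, beside 0.296%) and 4 without knockout-labelled array 1 (4.88%, beside 4.4%). Without both 16 passed, or 19.5%, beside 7.47% of all genes. Of the 10 members 0 passed with array weights, 1 without control 1 (Igfbp2), 1 without knockout-labelled array 1 (Ghr) and 3 without both (Igfbp1 at 2.62, Igfbp2 at 1.01 and Ghr at -0.37), and 0 in every other setting run. The same shares of all genes stand beside these member counts. Leaving out both was chosen after seeing the data. Control 1 lay toward the other group in Igfbp2, and knockout-labelled array 1 in Ghr, Igfbp5, Ces2e, Atp6v0d2 and Epcam. Passes without these arrays are therefore no separate tests. With single arrays left out Igfbp1 ranged from 1.15 to 2.07, Igfbp2 from 0.55 to 0.95, Ghr from -0.33 to -0.15, Stat5b from -0.0045 to 0.084 and Rictor from -0.0302 to 0.15. Stat5b reversed to -0.0045 without knockout-labelled array 3, and Rictor to -0.0132 without control 3 and -0.0302 without knockout-labelled array 3; the cause was not tested. The other members kept their direction in all 17 alternatives, Igfals barely. With the replicate block the difference of Igfbp1 stayed 1.39 and 0 genes passed. With 4 arrays a group, adjusted p-values of single genes moved widely. No detection calls were used, so whether dim probe sets such as that of Cyp2b13 exceed background was not tested.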
